A study of Mus musculus with 15 samples.

Results

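The nuclear-encoded subunits of the mitochondrial oxidative phosphorylation complexes were followed in mouse prefrontal forebrain cortex. Members were taken by symbol: names that begin with Nduf, Uqc, Cox4 to Cox8 or Atp5, and Sdha, Sdhb, Sdhc and Sdhd. The symbols matched 95 of the 21878 genes listed. Of these, 81 encode structural subunits (36 of complex I, 4 of complex II, 8 of complex III, 18 of complex IV and 15 of complex V), and 14 encode assembly factors, paralogs or other related proteins. A total of 91 members reached at least 1 FPKM (reads scaled to the length of the gene model and to the depth of the library) in at least 3 libraries and were tested among 12728 such genes. Mitochondrially encoded subunits were not analysed here.

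Complex I takes electrons from NADH and complex II from succinate, ubiquinone carries them to complex III, and cytochrome c carries them on to complex IV, which reduces oxygen. Complexes I, III and IV pump protons across the inner mitochondrial membrane, and complex V, the ATP synthase, uses the returning protons to make ATP. Neurons depend on this pathway for most of the ATP that ion pumping and synaptic transmission use, and each complex except complex II is built from proteins encoded in both the nuclear and the mitochondrial genome.

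The 15 libraries came from 4 groups of mice. In DKO-N (3 libraries) and DKO-B (4 libraries) the presenilin genes had been deleted by a conditional double knockout, and in WT-N and WT-B (4 libraries each) the mice were wildtype C57BL6/J. The DKO-N and WT-N mice drank nicotine at 100 µg/ml for 3 months from the age of 8 months, and the DKO-B and WT-B mice drank water over the same time. Presenilins are the catalytic subunits of gamma-secretase, the protease that cuts amyloid precursor protein and Notch. The labels name neither the Cre line that made the deletion nor the sex of the mice, and they number the libraries without saying whether each came from a separate mouse, so each p-value rests on library-to-library spread, which may be technical.

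Psen2, a gene the design deletes, averaged 1.57 ± 0.199 FPKM in DKO-N and 1.51 ± 0.179 FPKM in DKO-B, against 6.48 ± 0.571 FPKM in WT-N and 6.44 ± 0.77 FPKM in WT-B (SD, n = 3 in DKO-N and 4 in each other group). Reads in genes, recovered from the FPKM steps, numbered 16334914 to 19469257 per library. Between 9 and 21477 reads per library stood behind each tested member. The sum over 4 Y-linked genes was 24.3 to 33.0 FPKM in the DKO-B and WT-B libraries and 35.9 and 36.6 FPKM in DKO-N libraries 1 and 3. It was 0.233 FPKM in DKO-N library 2 and 0.0909 to 0.144 FPKM in the WT-N libraries. Nicotine and Y-linked expression therefore cannot be told apart among the wildtype libraries, and DKO-B against WT-B is the comparison in which all libraries share it. Striatal markers differed there: the 8 summed to 227 to 387 FPKM in DKO-B and 156 to 226 FPKM in WT-B, and 5 rose. With nicotine they summed to 187 to 274 FPKM in DKO-N and 162 to 285 FPKM in WT-N, and 0 rose. Their part in the member calls was not tested.

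Cell type markers differed between genotypes. Summed over 10 microglial markers, FPKM ranged 746 to 873 in DKO-N and 803 to 923 in DKO-B, against 215 to 238 in WT-N and 212 to 248 in WT-B. The 9 astrocyte markers summed to 1342 to 1413 in DKO-N and 1316 to 1441 in DKO-B, against 820 to 931 in WT-N and 766 to 861 in WT-B. The 12 excitatory neuron markers summed to 1934 to 2139 in DKO-N and 1958 to 2114 in DKO-B, against 2536 to 2716 in WT-N and 2456 to 2528 in WT-B. Of these lists, 7 microglial and 9 astrocyte markers rose and 7 excitatory neuron markers fell in DKO-N against WT-N, where 1 excitatory neuron marker rose. In DKO-B against WT-B 9, 9 and 7 did. Of all tested genes, 24.6% rose and 11% fell in the first comparison, and 25.5% and 12.4% in the second. In each, 5 of 8 general neuron markers fell and 5 of 9 oligodendrocyte markers rose. Of 11 endothelial and mural markers, 4 rose in DKO-N against WT-N and 6 in DKO-B against WT-B. The part of these shifts in the subunit values was not tested. In such bulk tissue fewer cells of a type and less RNA per cell cannot be told apart.

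The subunits were abundant and the groups differed little in total. All 95 members together summed to 10486 ± 538 FPKM in DKO-N and 10918 ± 430 FPKM in DKO-B, against 10310 ± 472 FPKM in WT-N and 10489 ± 425 FPKM in WT-B. They made up 3.38% of all FPKM in DKO-N and 3.48% in DKO-B, against 3.44% in WT-N and 3.49% in WT-B. By the median over genes of the group mean, complex IV was the most abundant. Its 18 genes had a median of 137 FPKM in DKO-N and 145 FPKM in DKO-B. The median was 139 FPKM in WT-N and 140.5 FPKM in WT-B, and Cox4i1 was at the top at 571 to 594 FPKM. Complex I genes were the least abundant, at a median of 75.9 FPKM in DKO-N and 79.2 FPKM in DKO-B, against 71.25 FPKM in WT-N and 72.3 FPKM in WT-B.

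By complex, the summed levels of DKO and WT libraries given the same drink overlapped. Complex I summed to 2973 ± 165 FPKM in DKO-N, against 2827 ± 127 FPKM in WT-N, and to 3070.5 ± 148 FPKM in DKO-B, against 2891 ± 141 FPKM in WT-B. Complex V summed to 2707 ± 122 FPKM in DKO-N, against 2672 ± 109 FPKM in WT-N, and to 2866 ± 102 FPKM in DKO-B, against 2729 ± 94.8 FPKM in WT-B. Complex IV summed to 3154 ± 177 FPKM in DKO-N, against 3209 ± 185 FPKM in WT-N, and to 3263 ± 129 FPKM in DKO-B, against 3239 ± 140 FPKM in WT-B. No p was computed for these sums.

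**Figure D1:**
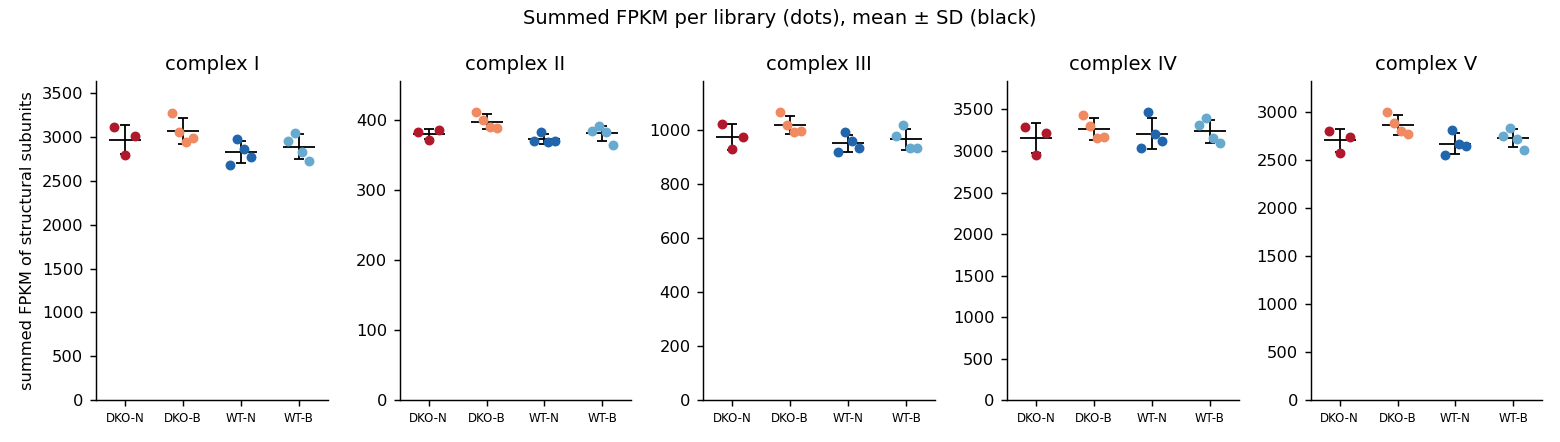
Summed FPKM of the structural subunits of complexes I to V in each library (dots), with the group mean ± SD in black, from DKO-N at the left to WT-B at the right. Complex I lies between 2688 and 3281 FPKM and complex IV between 2955 and 3468 FPKM over the 15 libraries, and the groups overlap in each panel except complex II, where DKO-N (371 to 385 FPKM) and WT-N (368 to 383 FPKM) lie below DKO-B (388 to 411 FPKM).

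Libraries of a group moved together across members. DKO-N library 2 held the lowest DKO-N value for 74 of the 91 tested members, DKO-B library 1 the highest DKO-B value for 70, WT-N library 2 the highest WT-N value for 71 and WT-B library 4 the lowest WT-B value for 56. The member sums ran between 9835 FPKM in WT-N library 1 and 11507 FPKM in DKO-B library 1. A count of members on 1 side is therefore not a count of independent observations.

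In the knockout given water nearly all called members were higher, by 1.08-fold to 1.82-fold between mean FPKM. Of the 22 that rose, 9 were accessory subunits of complex I such as Ndufc1 and Ndufa2. In DKO-B against WT-B, 22 of 91 members rose (24.2%, where 25.5% of all tested genes were called higher) and 1 fell (1.1%, where 12.4% of all tested genes were called lower), by limma at a Benjamini-Hochberg adjusted p under 0.05. The share called higher was close to that of all genes and the share called lower was below it. The median log2 change was 0.07 over the members and 0.05 over all tested genes, and 69 members (75.8%) had a positive change, against 61.7% of all tested genes. With the libraries rescaled by median of ratios, 11 members were called higher and 5 lower, where 19.1% of all tested genes were higher and 18.4% lower. The member called lower was Ndufs1, and none was called lower without DKO-B library 1, 2 or 4 or WT-B library 1, 3 or 4. A total of 17 members were higher in every DKO-B library than in every WT-B library (18.7%, where 24% of all tested genes were), and Ndufs1 was lower in every one (1.1%, where 12.5% were).

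With nicotine in both genotypes, 12 members were called, among them 6 accessory subunits of complex I that rose and 2 core subunits that fell. In DKO-N against WT-N, 9 members rose (9.89%, where 24.6% of all tested genes were called higher) and 3 fell (3.3%, where 11% were called lower) by the same test. Both shares were below those of all genes. The median log2 change was 0.05 over the members and 0.06 over all tested genes. In every DKO-N library 9 members were higher than in every WT-N library (9.89%, where 25.8% of all tested genes were) and 2 were lower (2.2%, where 11.8% were). Single libraries moved these counts. Without DKO-N library 2, 18 members were called higher (19.8%, where 24.2% of all tested genes were) and none lower. Without WT-N library 2, 18 were called higher and 1 lower, where 23.3% of all tested genes were higher and 10.6% lower. Without DKO-N library 1, 4 were called higher and 2 lower (20.6% and 9.74% of all tested genes). Without WT-N library 3, 7 were called higher and 1 lower (22.3% and 9.62%). With a term for Y-linked expression in the fit, a setting chosen after the data were seen, 1 member was called higher (Atp5j2) and 2 lower, where 10.2% of all tested genes were higher and 5.06% lower. The median was then -0.03 over the members, 59 of which were negative, and 0.04 over all tested genes. That term leaves DKO-N library 2 alone against WT-N, and this library held the lowest DKO-N value for 74 of the 91 tested members. The counts and medians with the term therefore rest on that library and are not a genotype result adjusted for Y-linked expression. With the libraries rescaled by median of ratios, 5 members were called higher and 16 lower, where 16.8% of all tested genes were higher and 17.4% lower. The complex medians were then 0.02, -0.04, -0.05, -0.08 and -0.03 for complexes I to V in DKO-N against WT-N, where complexes II, III and V were positive in the values as deposited. In DKO-B against WT-B they were 0.05, 0.04, 0.00, 0.00 and 0.04, with complex IV just below 0.

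The members called higher in both comparisons were 8 (Atp5j2, Ndufa2, Ndufa3, Ndufb6, Ndufc1, Ndufv3, Sdhb and Uqcc3) and Ndufs1 was called lower in both. They make up 8 of the 9 called higher in DKO-N against WT-N and 8 of the 22 called higher in DKO-B against WT-B. The 2 comparisons share no library, though 1 fit gave the spread for both. Ndufb6 is named because it is in this overlap, after its values were seen. Its call in DKO-N against WT-N was lost without any of 11 libraries (adjusted p up to 0.227). The calls of Atp5j2, Ndufv3 and Uqcc3 were kept in both comparisons without each of the 15 libraries in turn. In all, 3 of 12 calls in DKO-N against WT-N and 13 of 23 in DKO-B against WT-B were kept in this way.

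**Figure D2:**
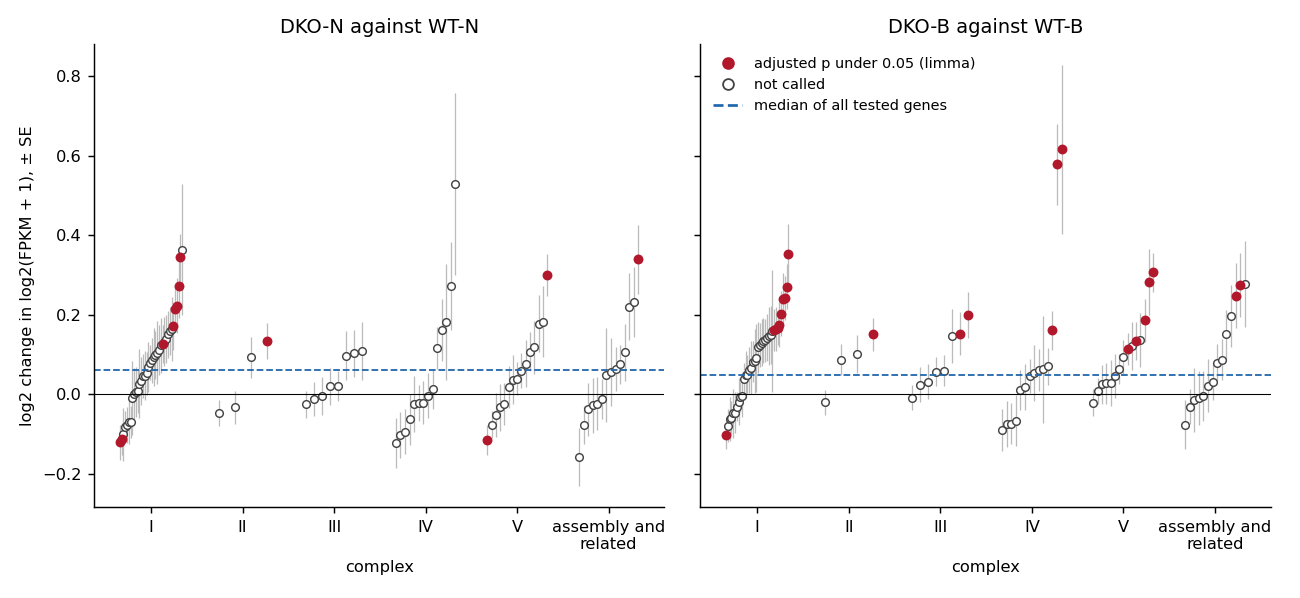
Change in log2(FPKM + 1) ± SE of each tested member, ordered within its complex, for DKO-N against WT-N (left) and DKO-B against WT-B (right). Filled points were called at an adjusted p under 0.05 by limma, and the dashed line is the median of all tested genes (0.06 at the left, 0.05 at the right). Complex I, the largest set, holds 8 of the 12 called members at the left and 10 of the 23 at the right, and Ndufs1 is called below 0 in both panels.

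In complex I the subunits that rose were accessory ones and the subunits that fell were core ones. Its 36 subunits split into the peripheral arm, which holds the flavin and iron-sulfur clusters that pass electrons to ubiquinone, and the membrane arm, which pumps protons. In DKO-B against WT-B, 6 of 19 membrane arm subunits and 3 of 9 accessory peripheral arm subunits rose and none fell. With 9 of all 36 called higher, complex I was close to the 25.5% of all tested genes. Of the 7 core peripheral arm subunits 1 fell and none rose. The medians were 0.12, 0.15 and -0.01 on the log2 scale in that order. In DKO-N against WT-N, 4 of 19, 2 of 9 and 0 of 7 rose, where 24.6% of all tested genes did, and 2 of the 7 core subunits fell, with medians of 0.10, 0.10 and -0.07. With the libraries rescaled the membrane arm, accessory peripheral and core medians were 0.03, 0.04 and -0.14 in DKO-N against WT-N and 0.07, 0.09 and -0.06 in DKO-B against WT-B. With the length trend removed, a setting chosen after the data were seen, all 3 were negative, at -0.0050, -0.05 and -0.17 in DKO-N against WT-N and -0.02, -0.03 and -0.11 in DKO-B against WT-B. The difference between core and accessory subunits was not tested.

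Ndufs1, a core subunit of the peripheral arm that carries iron-sulfur clusters, lies on chromosome 1 (63143592 to 63176822, GRCm38). It measured 47.6, 43.8 and 49.7 FPKM in DKO-N, 49.8, 49.8, 50.5 and 49.0 FPKM in DKO-B, 51.2, 50.6, 49.7 and 52.1 FPKM in WT-N, and 53.4, 51.4, 55.1 and 54.0 FPKM in WT-B. Every DKO library was below every WT library given the same drink, and DKO-N library 3 and WT-N library 3 were equal to the first decimal. The log2 change was -0.11 (SE 0.0398, limma adjusted p = 0.035) in DKO-N against WT-N and -0.10 (SE 0.0369, limma adjusted p = 0.0383) in DKO-B against WT-B. Exons of Ndufs1 overlap Eef1b2 on the opposite strand, which rose in DKO-B against WT-B (log2 change 0.18, limma adjusted p = 0.00958). The call was lost in DKO-N against WT-N without DKO-N library 1 or 2 or WT-N library 1 or 4 (limma adjusted p up to 0.198). It was lost in DKO-B against WT-B without DKO-B library 1, 2 or 4 or WT-B library 1, 3 or 4 (adjusted p up to 0.108).

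Ndufv1, the NADH-binding flavoprotein, had log2 changes of -0.08 in DKO-N against WT-N and -0.01 in DKO-B against WT-B and was not called in either.

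Accessory subunits gave the larger changes. Ndufv3, a small subunit beside the NADH-binding module, measured 37.6, 33.9 and 40.6 FPKM in DKO-N and 40.6, 39.5, 35.3 and 39.1 FPKM in DKO-B. It measured 28.0, 30.8, 29.4 and 28.5 FPKM in WT-N and 33.7, 33.7, 31.9 and 30.6 FPKM in WT-B. No DKO library overlapped the WT libraries given the same drink. The change was 1.28-fold between mean FPKM in DKO-N against WT-N (log2 0.34, SE 0.0594, limma adjusted p = 0.000279) and 1.19-fold in DKO-B against WT-B (log2 0.24, SE 0.055, limma adjusted p = 0.00229).

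Ndufc1, an accessory subunit of the membrane arm, measured 69.1, 53.8 and 60.1 FPKM in DKO-N and 72.7, 66.1, 62.7 and 60.3 FPKM in DKO-B. It measured 47.8, 52.1, 54.4 and 46.5 FPKM in WT-N and 53.6, 54.9, 47.9 and 47.7 FPKM in WT-B. The DKO-B libraries were all above the WT-B libraries, and DKO-N library 2 fell within the WT-N range. The log2 change was 0.27 (SE 0.0816, limma adjusted p = 0.0158) in DKO-N against WT-N and 0.35 (SE 0.0755, limma adjusted p = 0.00147) in DKO-B against WT-B. Without DKO-N library 1 the first of these had an adjusted p of 0.108. Ndufc2, its neighbour in the membrane arm, rose in DKO-N against WT-N (log2 0.21, adjusted p = 0.0094, or 0.0729 without DKO-N library 3) and was not called in DKO-B against WT-B (log2 0.12, adjusted p = 0.0845).

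Ndufa3, a membrane arm subunit, averaged 189 ± 15.7 FPKM in DKO-N and 191 ± 11.5 FPKM in DKO-B, against 162 ± 6.11 FPKM in WT-N and 162.0 ± 15.9 FPKM in WT-B, and was the most abundant complex I transcript in the knockouts. Ndufa2, a peripheral arm subunit with a thioredoxin-like fold, averaged 73.9 ± 4.94 FPKM in DKO-N and 79.4 ± 3.91 FPKM in DKO-B, against 65.5 ± 3.99 FPKM in WT-N and 65.7 ± 4.74 FPKM in WT-B. Ndufb6, a membrane arm subunit, averaged 59.6 ± 3.46 FPKM in DKO-N and 63.4 ± 1.99 FPKM in DKO-B, against 54.5 ± 2.8 FPKM in WT-N and 56.4 ± 1.99 FPKM in WT-B. Ndufa3 lost its call in DKO-N against WT-N without DKO-N library 1 (limma adjusted p = 0.113), and Ndufa2 lost it without any of 5 libraries (adjusted p up to 0.173). The DKO-N and WT-N libraries overlapped for Ndufa2 and Ndufb6, and the DKO-B and WT-B libraries overlapped for Ndufa3. All 3 have exons that overlap another gene on the opposite strand, Tfpt for Ndufa3, Tmco6 for Ndufa2 and Smim27 for Ndufb6, and no source used here states whether reads were assigned by strand. Tfpt rose in DKO-B against WT-B as well (log2 0.22, limma adjusted p = 0.012), and Tmco6 was not called (log2 0.12, adjusted p = 0.124).

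Of the 4 subunits of complex II, whose succinate dehydrogenase is also a tricarboxylic acid cycle enzyme, 1 rose in each genotype comparison. That share is like the 24.6% of all tested genes called higher in DKO-N against WT-N and 25.5% in DKO-B against WT-B. Sdhb, the iron-sulfur subunit, measured 101.4, 100.4 and 101.7 FPKM in DKO-N and 113, 105, 102 and 98.0 FPKM in DKO-B. It measured 88.5, 95.1, 90.5 and 94.6 FPKM in WT-N and 95.3, 97.0, 88.9 and 93.8 FPKM in WT-B. Each DKO library was above all WT libraries given the same drink, by log2 changes of 0.13 (SE 0.0446, limma adjusted p = 0.0279) with nicotine and 0.15 (SE 0.0412, limma adjusted p = 0.0086) without. The call with nicotine was lost without DKO-N library 1 or 3 or WT-N library 1 or 3 (adjusted p up to 0.0766). Sdha, the flavoprotein that binds succinate, had log2 changes of -0.05 (95% confidence interval -0.12 to 0.02) and -0.02 (-0.09 to 0.04) and was not called.

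**Figure D3:**
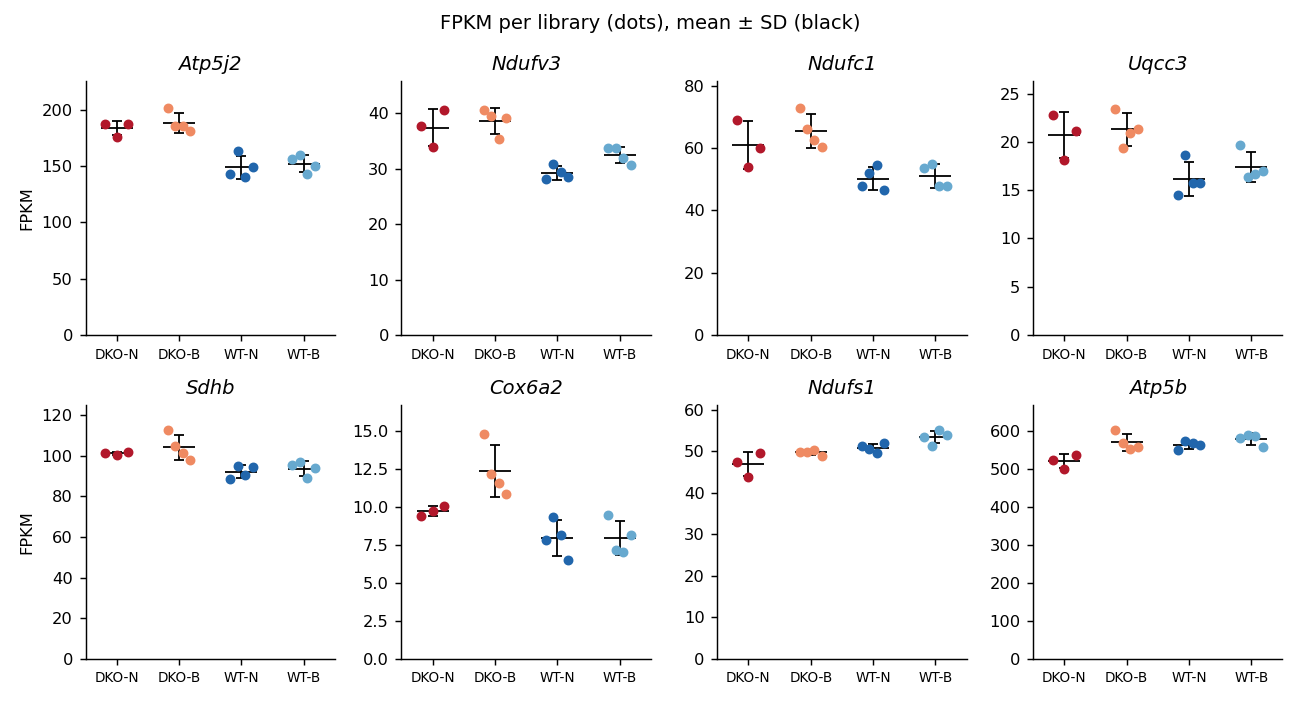
FPKM of 8 members in each library (dots), with the group mean ± SD in black, from DKO-N at the left to WT-B at the right and with each axis starting at 0. Atp5j2 lies at 176 to 202 FPKM in the DKO libraries and 141 to 163 FPKM in the WT libraries, while Ndufs1 and Atp5b are lowest in DKO-N library 2 (43.8 and 499.98 FPKM).

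In complex III, which passes electrons from ubiquinol to cytochrome c, 2 of 8 subunits rose in DKO-B against WT-B, a share like the 25.5% of all tested genes, and none were called in DKO-N against WT-N. The 2 were the small subunits Uqcr11 (139 ± 6.81 FPKM in DKO-B, against 121 ± 7.86 FPKM in WT-B, limma adjusted p = 0.0114) and Uqcr10 (163 ± 8.39 FPKM in DKO-B, against 146 ± 11.0 FPKM in WT-B, limma adjusted p = 0.0382). Uqcr10 lost its call without any of 6 libraries (adjusted p up to 0.135). Uqcrfs1, the Rieske iron-sulfur protein and a catalytic subunit, was not called, with log2 changes of 0.02 (95% confidence interval -0.06 to 0.10) in DKO-N against WT-N and 0.06 (-0.02 to 0.13) in DKO-B against WT-B. Uqcrh, the most abundant complex III transcript at 213 to 221 FPKM per group, was not called either.

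The assembly factor Uqcc3, which in human cells is needed for early cytochrome b assembly, was called in both comparisons. It measured 22.8, 18.2 and 21.1 FPKM in DKO-N and 23.5, 19.4, 21.0 and 21.4 FPKM in DKO-B. It measured 14.5, 18.6, 15.7 and 15.7 FPKM in WT-N and 19.7, 16.4, 16.7 and 17.0 FPKM in WT-B. Single libraries overlapped in both comparisons: WT-N library 2 was above DKO-N library 2, and WT-B library 1 was above DKO-B library 2. It rose 1.28-fold with nicotine (log2 0.34, SE 0.087, limma adjusted p = 0.00601) and 1.22-fold without (log2 0.28, SE 0.0805, limma adjusted p = 0.0126). Of the 7 complex I assembly factors Ndufaf6 was the 1 called, in DKO-B against WT-B, at 3.78 ± 0.293 FPKM in DKO-B and 3.02 ± 0.0666 FPKM in WT-B (limma adjusted p = 0.0246, or up to 0.0684 without DKO-B library 1 or 4 or WT-B library 1). In DKO-N against WT-N its log2 change was 0.23 (adjusted p = 0.0501), and the interaction was not called.

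Complex IV, cytochrome c oxidase, had the lowest medians of the 5 complexes. Its 14 tested genes had medians of -0.01 in DKO-N against WT-N, with none called, and 0.05 in DKO-B against WT-B, with 3 higher and none lower, where 25.5% of all tested genes were higher and 12.4% lower. Cox4i1, the most abundant, averaged 571 ± 33.7 FPKM in DKO-N and 594 ± 18.3 FPKM in DKO-B, against 579 ± 25.7 FPKM in WT-N and 575 ± 20.2 FPKM in WT-B. Cox6b1, the intermembrane space subunit that bridges the dimer, was the only called abundant subunit, at 354 ± 21.5 FPKM in DKO-B and 316 ± 5.5 FPKM in WT-B (limma adjusted p = 0.0152, or 0.0583 without DKO-B library 1). Cox8a, Cox6a1 and Cox7b had negative log2 changes in both comparisons, between -0.03 and -0.12, and were not called.

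The other 2 called genes of complex IV were tissue-specific isoforms at low level. Cox6a2, the heart and muscle isoform of subunit 6a, is known in mouse brain from parvalbumin interneurons. It measured 9.41, 9.70 and 10.1 FPKM in DKO-N and 14.8, 12.2, 11.6 and 10.9 FPKM in DKO-B. It measured 7.81, 9.32, 8.15 and 6.49 FPKM in WT-N and 9.49, 7.13, 7.02 and 8.16 FPKM in WT-B. Neither pair of groups given the same drink overlapped. Its rise was 1.55-fold in DKO-B against WT-B (log2 0.58, SE 0.102, limma adjusted p = 0.000284), and in DKO-N against WT-N the log2 change was 0.27 (SE 0.11, adjusted p = 0.0642) and was not called.

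Against the ubiquitous isoform, Cox6a2 made up 2.63% ± 0.19 of summed Cox6a1 and Cox6a2 FPKM in DKO-N and 3.18% ± 0.28 in DKO-B, against 1.97% ± 0.218 in WT-N and 1.97% ± 0.282 in WT-B. Pvalb, the marker of parvalbumin interneurons, averaged 53.7 ± 10.2 FPKM in DKO-N and 57.4 ± 9.05 FPKM in DKO-B, against 39.8 ± 5.22 FPKM in WT-N and 38.9 ± 4.98 FPKM in WT-B. Pvalb rose in both comparisons (log2 0.42, limma adjusted p = 0.026, with nicotine, and log2 0.55, adjusted p = 0.0027, without). The call with nicotine was lost without DKO-N library 1 or 3 or WT-N library 3 or 4 (adjusted p up to 0.155). With the term for Y-linked expression, which leaves DKO-N library 2 alone against WT-N, the log2 change was 0.16. Of 9 inhibitory neuron markers, 6 rose with nicotine and 8 without, and of 8 striatal markers 0 rose with nicotine and 5 without. Their part in the Cox6a2 values was not tested. Itgad, whose exons overlap Cox6a2 on the opposite strand, had at most 0.0843 FPKM in a library.

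Cox6b2, the testis isoform of subunit 6b, rose in DKO-B (3.47, 3.79, 1.95 and 3.54 FPKM) against WT-B (1.92, 1.19, 2.71 and 1.19 FPKM), with a limma adjusted p of 0.0301. The call was lost without DKO-B library 1, 2 or 4 or WT-B library 2 or 4 (adjusted p up to 0.0949). DKO-B library 3 lay inside the WT-B range. Only 13 to 51 reads per library stood behind Cox6b2, and it made up 0.983% of the Cox6b pair in DKO-N and 0.895% in DKO-B, against 0.651% in WT-N and 0.549% in WT-B. Cox7a1, the muscle isoform of subunit 7a, stood at 9 to 19 reads per library and was not called. Cox4i2, Cox7b2 and Cox8b stayed under the level set for testing with at most 35 reads in a library, and Cox8c was listed at 0 in all 15 libraries.

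Complex V held the member with the smallest p in DKO-B against WT-B. Atp5j2, subunit f of the membrane part, measured 187, 176 and 187 FPKM in DKO-N and 202, 185, 185 and 181 FPKM in DKO-B. It measured 143, 163, 141 and 149 FPKM in WT-N and 156, 160, 143 and 150 FPKM in WT-B. All 7 DKO libraries were above all 8 WT libraries. The change was 1.23-fold with nicotine (log2 0.30, SE 0.0531, limma adjusted p = 0.000342) and 1.24-fold without (log2 0.31, SE 0.0491, limma adjusted p = 0.000116).

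Atp5b, the catalytic beta subunit, measured 524, 499.98 and 537 FPKM in DKO-N and 603, 568, 552 and 558 FPKM in DKO-B. It measured 549, 574, 567 and 563 FPKM in WT-N and 580, 589, 587 and 557 FPKM in WT-B. All 3 DKO-N libraries were below all libraries of the other groups. It fell in DKO-N against WT-N (log2 -0.12, SE 0.0377, limma adjusted p = 0.0257) and was not called in DKO-B against WT-B (log2 -0.02, 95% confidence interval -0.10 to 0.05). The call was lost without DKO-N library 2 (adjusted p = 0.112), DKO-N library 1 (0.05), WT-N library 2 (0.0547) or WT-N library 3 (0.0564).

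In DKO-B against WT-B, 3 of the 5 genes of the catalytic head rose: Atp5c1 (gamma, log2 0.11, limma adjusted p = 0.0335), Atp5d (delta, log2 0.13, adjusted p = 0.0404) and Atp5e (epsilon, log2 0.28, adjusted p = 0.0126). They form the central stalk that turns inside the head. The Atp5c1 and Atp5d calls were lost without any of 5 and 6 libraries (adjusted p up to 0.114 and 0.127). With the length trend removed none of the 3 was called, with log2 changes of 0.02, 0.03 and 0.10. Over all of complex V, 5 of 15 genes rose in this comparison, where 25.5% of all tested genes did. Atp5g1, a gene for the proton-carrying c subunit, rose as well (86.3 ± 5.74 FPKM in DKO-B, against 75.7 ± 2.99 FPKM in WT-B, limma adjusted p = 0.0127). Atp5g3 gave most of the c subunit transcripts, 55.8% in DKO-N and 56.2% in DKO-B, against 57.1% in WT-N and 58.1% in WT-B. The c subunit genes encode the same mature protein from similar sequences, so the split of reads between them is uncertain.

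Promoters of 4 members called higher in both comparisons are shown to set their letters beside their shared direction, and that of Cox6a1, which was not called, for comparison. They run 250 bases before to 50 after the gene start (GRCm38.p6, RefSeq), 5′ to 3′ on the gene's strand. A promoter was on the RefSeq table for 79 of the 95 members. Motifs were searched by exact letters on both strands: GCGCANGCGC for NRF1, CCGGAAG for ETS factors and ATGGCGG for YY1, and none of these strings contains another. Capitals mark matches.
Atp5j2 promoter, chr5:145191492-145191791, minus strand: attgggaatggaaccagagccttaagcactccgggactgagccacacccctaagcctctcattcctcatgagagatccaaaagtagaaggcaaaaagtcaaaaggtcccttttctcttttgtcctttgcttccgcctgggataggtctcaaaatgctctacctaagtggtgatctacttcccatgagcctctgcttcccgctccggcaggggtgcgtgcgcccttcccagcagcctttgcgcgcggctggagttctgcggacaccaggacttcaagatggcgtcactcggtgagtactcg
Ndufc1 promoter, chr3:51408906-51409205, minus strand: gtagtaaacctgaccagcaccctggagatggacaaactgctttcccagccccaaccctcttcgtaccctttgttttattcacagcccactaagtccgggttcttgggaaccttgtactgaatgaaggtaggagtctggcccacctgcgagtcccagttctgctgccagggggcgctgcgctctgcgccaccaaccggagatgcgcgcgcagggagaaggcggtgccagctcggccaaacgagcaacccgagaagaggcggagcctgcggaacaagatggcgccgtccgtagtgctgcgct
Ndufv3 promoter, chr17:31519865-31520164, plus strand: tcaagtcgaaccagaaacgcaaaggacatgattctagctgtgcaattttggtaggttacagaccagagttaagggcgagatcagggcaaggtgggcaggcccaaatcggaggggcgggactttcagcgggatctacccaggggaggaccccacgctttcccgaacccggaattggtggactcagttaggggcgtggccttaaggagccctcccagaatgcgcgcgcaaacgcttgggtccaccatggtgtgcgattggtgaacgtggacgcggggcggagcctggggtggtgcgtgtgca
Sdhb promoter, chr4:140961021-140961320, plus strand: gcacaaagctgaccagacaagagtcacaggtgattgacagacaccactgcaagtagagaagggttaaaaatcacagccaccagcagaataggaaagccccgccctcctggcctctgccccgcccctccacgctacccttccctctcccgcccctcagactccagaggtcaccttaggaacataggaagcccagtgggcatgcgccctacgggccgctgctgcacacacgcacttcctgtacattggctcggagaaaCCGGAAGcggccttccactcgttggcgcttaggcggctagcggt
Cox6a1 promoter, chr5:115348909-115349208, minus strand: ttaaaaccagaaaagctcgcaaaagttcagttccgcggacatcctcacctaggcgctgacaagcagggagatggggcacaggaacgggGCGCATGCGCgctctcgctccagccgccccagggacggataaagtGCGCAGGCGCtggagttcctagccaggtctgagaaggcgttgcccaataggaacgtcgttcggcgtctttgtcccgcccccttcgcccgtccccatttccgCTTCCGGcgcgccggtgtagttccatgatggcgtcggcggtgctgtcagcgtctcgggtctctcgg

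The shown promoters of Atp5j2, Ndufc1 and Ndufv3 held no match, and Sdhb held 1 match to the ETS letters. Of the members called higher in both comparisons, Ndufa3 and Uqcc3 also held none and Ndufb6 held 1 ETS match. Cox6a1, which was not called, held 2 NRF1 matches and 1 ETS match. Other members that were not called varied: Cox5a, Cox5b and Ndufa4 held no match, and Sdha held 3 NRF1 matches. A difference in matches between called and other members was not tested. Over the 79 member promoters, 20 (25.3%) held the NRF1 letters, against 11.2% of the 10173 tested genes on the table and 5.19% of all 27025. The ETS letters stood in 17 (21.5%), against 19.1% of tested genes, and the YY1 letters in 12 (15.2%), against 9.11%. The letters say nothing of binding.

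Nicotine against water gave no called member by the test. In DKO-N against DKO-B limma called 0 of 91 members, while among all 12728 genes 0.102% were called higher and 0.055% lower. At an unadjusted p under 0.05 there were 9 members (9.89%, where 13.9% of all tested genes were), and 0 by limma voom on recovered reads after adjustment (0.558% of all tested genes higher and 0.126% lower). In WT-N against WT-B 0 were called, where 0.0943% of all tested genes were called higher and 0.0786% lower, and 3 had an unadjusted p under 0.05 (3.3%, where 8.7% of all tested genes did). The interaction, which asks whether nicotine acted differently in the 2 genotypes, called 0 members (0.0157% of all tested genes higher and 0% lower), with 1 at an unadjusted p under 0.05 (1.1%, where 6.9% of all tested genes did).

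Most members were nonetheless lower on nicotine by a small amount in the knockout. In DKO-N against DKO-B, 78 of 91 members (85.7%) had a negative change, against 46.9% of all tested genes, with medians of -0.06 over the members and 0.01 over all genes on the log2 scale. All 15 complex V genes, all 4 complex II genes and 31 of 36 complex I genes were negative, with complex medians of -0.08, -0.07 and -0.05. The libraries did not overlap, with DKO-N lower, for 9 members (9.89%, where 3.99% of all tested genes did so), and with DKO-N higher for 0 (6.91% of all tested genes). This rests on DKO-N library 2: without it 51 of 91 members were negative and the median was -0.01. In WT-N against WT-B, 64 of 91 (70.3%) were negative, against 49.2% of all tested genes, with a median of -0.02. Without WT-N library 2, 80 of 91 were negative (87.9%) and the median was -0.05. With the term for Y-linked expression 80 of 91 were positive, against 56.4% of all tested genes, and the median was 0.09. That term was estimated only from DKO-N library 2 against DKO-N libraries 1 and 3. These values therefore rest on that library and cannot tell nicotine from Y-linked expression. In the values as deposited 1 member, Uqcrc1, was lower without overlap (1.1%, where 2.66% of all tested genes were) and 0 were higher (3.14%).

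**Figure D4:**
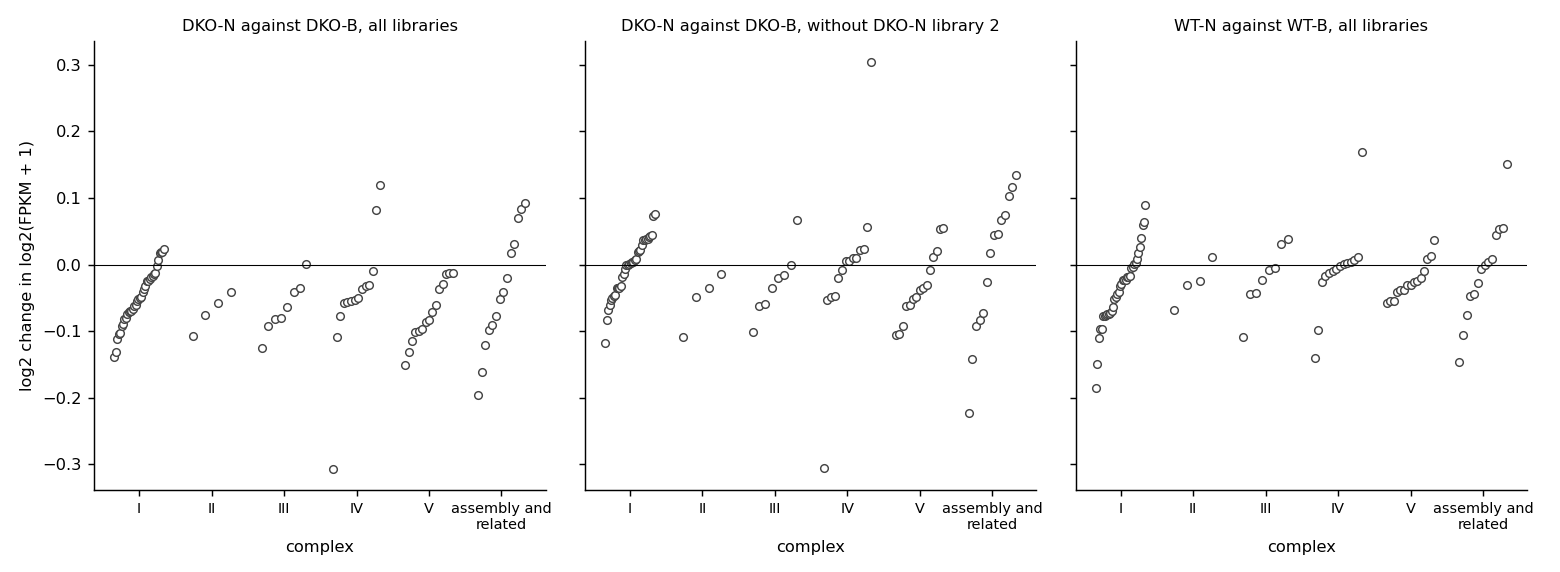
Change in log2(FPKM + 1) of each tested member by complex for DKO-N against DKO-B with all libraries (left), the same without DKO-N library 2 (middle) and WT-N against WT-B (right). None of the points was called. At the left 78 of 91 points lie below 0, in the middle 51 and at the right 64.

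None of the members with the smallest p on nicotine was called. Uqcrc1, a core protein of complex III, came first in both genotypes. It measured 131, 121 and 124 FPKM in DKO-N, against 143, 137, 133 and 134 FPKM in DKO-B, and 125, 129, 128 and 127 FPKM in WT-N, against 137, 139, 139 and 136 FPKM in WT-B. Nicotine and water libraries did not overlap in either genotype. The log2 change was -0.13 (SE 0.0342, limma adjusted p = 0.138) in DKO and -0.11 (SE 0.0317, limma adjusted p = 0.302) in WT. Atp5b (log2 -0.13, adjusted p = 0.153) and Ndufv1 (log2 -0.14, adjusted p = 0.166) followed in DKO, both without overlap, and Ndufv3 (log2 -0.15, adjusted p = 0.467) and Ndufs4 (log2 -0.11, adjusted p = 0.566) in WT. The WT-N libraries also differed from WT-B in Y-linked expression, and its part in the Uqcrc1 values was not tested.

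Gene length moved with the genotype changes, and the members are short. Gene models of the 95 members had a median of 820 bases (292 to 6001), against 3564 bases over all tested genes. Over all tested genes the median log2 change in DKO-B against WT-B was 0.17 for models under 500 bases and -0.02 for those of 6000 bases or more. In DKO-N against WT-N these medians were 0.18 and 0.03. Under 1000 bases, 15 of 50 members were called higher in DKO-B against WT-B (30%), against 38.5% of the 611 tested genes of that length. At 1000 bases or more 7 of 41 members were (17.1%), against 24.9% of all such genes. In DKO-N against WT-N the shares under 1000 bases were 14% of members and 30.3% of all genes.

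With each library's length trend removed, a setting chosen after the data were seen, 5 members were called higher in DKO-B against WT-B (Atp5j2, Cox6a2, Ndufa2, Ndufc1 and Ndufv3) and 31 were called lower, where 18.8% of all tested genes were higher and 18.6% lower. In DKO-N against WT-N, 3 were called higher (Atp5j2, Ndufv3 and Uqcc3) and 34 were called lower, where 17.7% were higher and 18.4% lower. Over all members the medians were then -0.07 in DKO-N against WT-N and -0.06 in DKO-B against WT-B. Ndufs1 was called lower with and without the length trend in both comparisons. The complex medians after removal were -0.04, -0.02, -0.05, -0.13 and -0.07 for complexes I to V in DKO-B against WT-B.

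**Figure D5:**
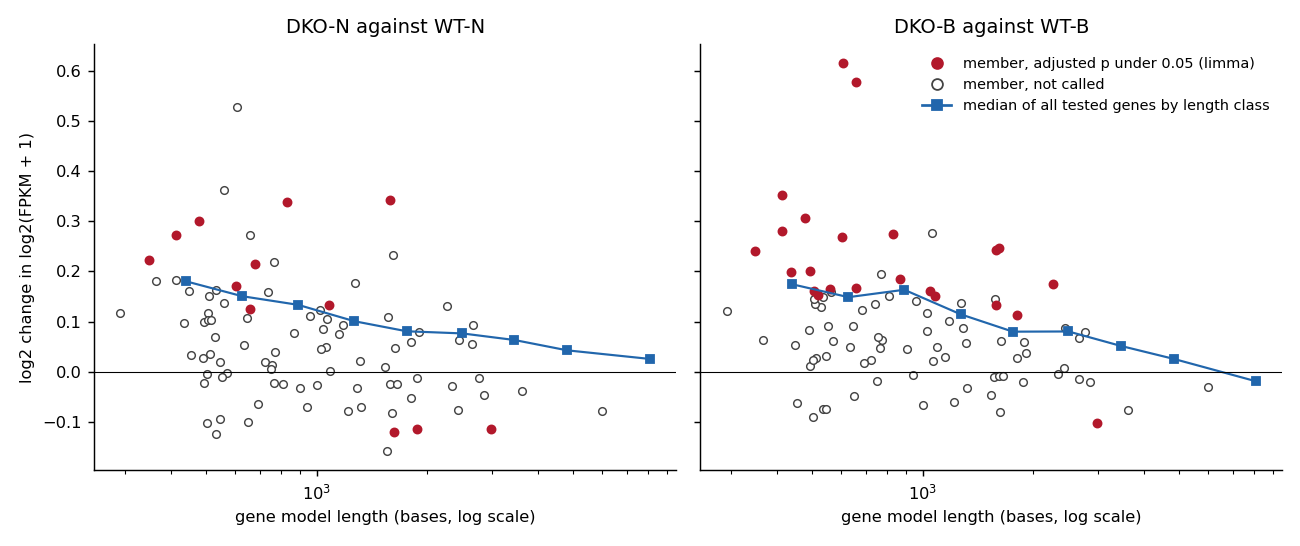
Change in log2(FPKM + 1) of each tested member against the length of its gene model (log axis), for DKO-N against WT-N (left) and DKO-B against WT-B (right). Filled points were called at an adjusted p under 0.05 by limma and blue squares are the medians of all tested genes by length class, which run between 0.18 and 0.03 at the left and between 0.17 and -0.02 at the right; most members lie at or below the squares.

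Genes of neighbouring mitochondrial pathways are given beside the shares of all tested genes, which were 24.6% higher and 11% lower in DKO-N against WT-N and 25.5% higher and 12.4% lower in DKO-B against WT-B. Of 77 mitochondrial ribosome genes, 12 rose and 7 fell in DKO-N against WT-N, and 15 rose and 3 fell in DKO-B against WT-B. Of 34 assembly factors outside the symbols above, 3 rose and 3 fell with nicotine, and 6 rose and 2 fell without. Of 20 tricarboxylic acid cycle and pyruvate dehydrogenase genes, 3 rose and 3 fell with nicotine, and 3 rose and 1 fell without. Of 16 glycolysis genes, 2 rose with nicotine and 6 without, and none fell.

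Ppargc1a, the coactivator that raises transcription of mitochondrial genes, averaged 4.92 ± 0.0593 FPKM in DKO-N and 4.94 ± 0.231 FPKM in DKO-B, against 4.25 ± 0.0908 FPKM in WT-N and 4.24 ± 0.269 FPKM in WT-B. It rose in DKO-N against WT-N (log2 0.17, limma adjusted p = 0.0181) and in DKO-B against WT-B (log2 0.18, adjusted p = 0.00777). The call with nicotine was lost with the libraries rescaled (adjusted p = 0.11) and without DKO-N library 2 (0.0509). With the term for Y-linked expression, which leaves DKO-N library 2 alone against WT-N, the log2 change was 0.19. Its relative Ppargc1b fell in DKO-B against WT-B (log2 -0.22, limma adjusted p = 0.00803) and was not called in DKO-N against WT-N (log2 0.01, adjusted p = 0.943). Nrf1, Tfam and Esrra, which act with them on mitochondrial genes, were not called in either comparison.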

How the data were processed

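RNA from mouse prefrontal forebrain cortex was extracted with TRIzol and made into libraries with the TruSeq Stranded mRNA LT kit, per the labels' protocols. The authors deposited FPKM per gene and library. GRCm38.p6 is named in the submitters' processing notes. The aligner, counter and strand setting were not given in the sources used here. For 21876 genes (99.99%) the FPKM steps gave whole reads within 0.02 reads, from which the depth was taken. Each library held 16334914 to 19469257 reads in genes, and members with few reads were measured less precisely.

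Genes that reached 1 FPKM in 3 or more libraries were tested on log2(FPKM + 1), so fold changes of low genes are understated. limma 3.58.1 in R 4.3.3 was run with an intensity trend in 1 fit of all 15 libraries, with 5 contrasts, no replicate block, and Benjamini-Hochberg adjustment over all tested genes. An adjusted p under 0.05 was called. limma voom on the recovered reads called 4848 genes in DKO-B against WT-B and 4603 in DKO-N against WT-N. The test was checked on simulated data. With reads drawn from WT-B levels and 200 of 12727 genes raised in DKO-B, it recovered 50.7% of 1.25-fold changes. It recovered 77.6% of 1.5-fold and 95.5% of 2-fold changes, with 8 false calls. Python 3.11.15 with pandas 2.3.3 summed and tabulated the values, and matplotlib 3.10.9 drew the plots.

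Members and gene lists were chosen with earlier results of these data known. Named members were a set list of core subunits and isoforms, the called members of smallest p (at most 3 per comparison and complex), the 3 smallest p where fewer than 5 were called, up to 4 called assembly factors or paralogs, and the most abundant member of each complex. Alternatives were a filter at 5 FPKM or none, a pseudocount of 0.1, median-of-ratios rescaling, no intensity trend, only the groups compared, a replicate block, voom, and each library left out. Removal of a lowess length trend (span 0.3) and a term for Y-linked expression were added after the data were seen. Some named results are not reported here.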

Additional observations from a re-analysis of the deposited data

Results flagged for a closer look

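In 6 of the 159 groups of 4 libraries examined, 1 library stood apart from the other 3 by Dixon's test of the gap over the range, and chance alone gives about 1 in 20 groups. Cox6b2, the testis isoform of subunit 6b, was 1.95 FPKM in DKO-B library 3 and 3.47 to 3.79 FPKM in the other DKO-B libraries. Cox8a, a small subunit of complex IV, was 513.3 FPKM in WT-N library 2 and 457.5 to 461.3 FPKM in the other WT-N libraries. The complex II sum was 382.8 FPKM in WT-N library 2 and 368.3 to 369.4 FPKM in the others. Atp5g1, a c subunit gene, was 80.12 FPKM in WT-B library 3 and 73.78 to 74.55 FPKM in the other WT-B libraries. Atp5g2, another c subunit gene, was 83.56 FPKM in WT-B library 4 and 93.5 to 93.83 FPKM in the others. Ndufs3, a core subunit of complex I, was 84.0 FPKM in WT-B library 4 and 91.36 to 92.63 FPKM in the others.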

How the results depend on the processing

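Several settings moved the counts. With the length trend removed (added after the data were seen), 3 members were higher and 34 lower in DKO-N against WT-N, and 5 higher and 31 lower in DKO-B against WT-B. With rescaling, 5 were higher and 16 lower in DKO-N against WT-N, and 11 higher and 5 lower in DKO-B against WT-B. Without the intensity trend 1 was lower in DKO-N against WT-N and 0 in DKO-B against WT-B. In DKO-N against WT-N, 1 was lower with no filter and 0 with only the groups compared. The term for Y-linked expression (also added later) leaves DKO-N library 2 alone in that comparison, so its calls rest on that library and are not repeated here. Leaving out each library gave 4 to 18 higher and 0 to 3 lower in DKO-N against WT-N, and 15 to 25 higher and 0 to 1 lower in DKO-B against WT-B. Nicotine and the interaction called 0 members under each setting run. Removing the length trend turned some positive log2 changes of named members negative. These were Atp5g3 (-0.12), Cox7a2 (-0.12), Ndufb4 (-0.13) and Uqcrh (-0.13) in DKO-N against WT-N. In DKO-B against WT-B they were Atp5a1 (-0.074), Atp5g3 (-0.13), Cox4i1 (-0.10), Cox5a (-0.14), Cox5b (-0.10), Cox6b1 (-0.011), Cox7a2l (-0.093), Ndufa4 (-0.16), Uqcr10 (-0.018) and Uqcrh (-0.14). As deposited, Cox6b1 and Uqcr10 were called higher and the others were not called. After removal Cox6b1 and Uqcr10 were not called and the others were called lower. The causes were not tested. With the replicate block, 7 were higher and 2 lower in DKO-N against WT-N, and 20 higher and 1 lower in DKO-B against WT-B. The numbers share no source in the labels: same-numbered libraries correlated at -0.21 to 0.16 over 21 pairs, with 2 over 0.1. Over all 12728 tested genes, DKO-N against WT-N had 4538 calls in either direction. It had 3980 with the block, 3769 with only the groups compared and 4459 without the intensity trend. With no filter it had 4864 among 18118 genes. DKO-B against WT-B had 4836 calls, 4620 with the block and 4762 without the intensity trend. With 1 library left out there were 3442 to 4525 calls in DKO-N against WT-N and 4075 to 4940 in DKO-B against WT-B. WT-N against WT-B had 22 calls. DKO-N against DKO-B had 20 calls, 0 with only the groups compared, 13 without the intensity trend, 3 with the Y-linked term and 87 with voom. The interaction had 2, and 1 with no filter, no intensity trend or the block.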

Other observations

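Genes that carry electrons between the complexes or serve mitochondria in other ways were called in small numbers, where 24.6% of all tested genes were called higher and 11% lower in DKO-N against WT-N and 25.5% higher and 12.4% lower in DKO-B against WT-B. Of 10 subunits and electron carriers named outside the symbol rule, 1 rose and none fell in DKO-N against WT-N, and 3 rose and 1 fell in DKO-B against WT-B. Of 11 coenzyme Q synthesis genes, 1 rose and none fell in DKO-N against WT-N, and 1 rose and 1 fell in DKO-B against WT-B. Of 24 import genes, 4 rose and 2 fell with nicotine, and 2 rose and 1 fell without. Of 9 outer membrane channels and nucleotide carriers, none rose and 1 fell with nicotine, and 1 rose and 1 fell without. Of 13 regulators of mitochondrial biogenesis, 2 rose and none fell with nicotine, and 2 rose and 1 fell without.

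Coq10b, a coenzyme Q binding protein, averaged 17.0 ± 2.25 FPKM in DKO-N and 12.5 ± 0.665 FPKM in DKO-B, against 17.1 ± 1.63 FPKM in WT-N and 16.3 ± 0.666 FPKM in WT-B. It fell in DKO-B against WT-B (log2 -0.36, limma adjusted p = 0.000914). Its change in DKO-N against WT-N was -0.01 (adjusted p = 0.949). Cox10, which makes heme for complex IV, averaged 7.23 ± 0.179 FPKM in DKO-N, against 8.37 ± 0.389 FPKM in WT-N, and fell there (log2 -0.19, limma adjusted p = 0.0148). That call was lost without DKO-N library 3 (adjusted p = 0.0598). With the term for Y-linked expression, which leaves DKO-N library 2 alone against WT-N, the log2 change was -0.16.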
